A study of Mus musculus with 9 samples.

Results

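The 35 genes described here encode the tricarboxylic acid cycle, the enzymes that feed pyruvate and glutamate into it, and the malate-aspartate shuttle. They were chosen by symbol from the 21899 genes of the deposited table. All 35 matched 1 row each and were among the 15827 genes abundant enough to be tested, those averaging 10 or more. The series measured poly(A) RNA of mouse brain tumor stem cells, labelled as brain tissue, in 9 libraries. The control group holds 3 libraries of these cells, and the labels name no edit for it. The groups sgRNA1 KO and sgRNA2 KO hold 3 libraries each, of cells in which Gpd1 was knocked out by CRISPR-Cas9 with guide 1 or guide 2. Knockout (KO) cells had been transfected with the guide vector, selected with puromycin and grown from picked colonies founded by single cells, so they are clonal lines. The labels do not say whether the controls went through these steps or whether libraries of a group were separate cultures. The p-values measure only the spread between these libraries, which among the controls may be technical. Titles of the KO libraries carry differing numbers, whose meaning the labels do not give. Strain, sex and age of the source mice are not given in the sources used here.

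The cycle oxidizes acetyl groups in the mitochondrial matrix and supplies reducing equivalents to the respiratory chain and precursors for amino acids, nucleotides and lipids. Pyruvate enters as acetyl-CoA through pyruvate dehydrogenase, which pyruvate dehydrogenase kinases switch off by phosphorylation, or as oxaloacetate through pyruvate carboxylase, an enzyme known in brain mainly from astrocytes. NADH made in the cytosol cannot cross the inner mitochondrial membrane, so its electrons are carried in by the malate-aspartate shuttle or by the glycerol phosphate shuttle, in which Gpd1 is the cytosolic enzyme and Gpd2 the mitochondrial one.

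Values are the authors' normalized read counts, and those listed in a row for a group are of replicates 1, 2 and 3. They totalled 39781901 to 42975283 per library. The stem cell markers Sox2, Nes, Olig2 and Fabp7 were abundant in the controls (means of 7704, 42539, 37585 and 98281), while Prom1 stood at 10. The microglial list summed to 18 to 59, with Cx3cr1 and Itgam not in the table. Gpd1 itself stood at 25106, 26566 and 25836 in the controls, 3299, 1347 and 21351 with guide 1 and 10812, 10812 and 6945 with guide 2. The library labelled sgRNA1 KO replicate 3 thus held 82.6% of the control mean. That library and sgRNA2 KO replicate 1 stood nearest the controls over all genes tested, with Pearson's r of 0.962 to 0.972 with single controls across genes on the log2 scale, against 0.909 to 0.945 for the remaining KO libraries. Members whose call in KO against control differs without this pair are given with and without it. As the pair was picked for its closeness to the controls, leaving it out favors larger differences and is no independent test. Over all genes, those called in KO went from 6227 to 7674 without it.

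In KO against control, 5 members rose and 1 fell. Pdk2 (a kinase that inactivates pyruvate dehydrogenase), Pcx (pyruvate carboxylase) and Glud1 (glutamate dehydrogenase) rose most, and Idh3g and Sdhc, subunits of isocitrate and succinate dehydrogenase, rose by less. Slc25a22, a mitochondrial glutamate carrier, fell. The test was limma on log2(value + 1), read at a Benjamini-Hochberg adjusted p under 0.05 over all genes tested. It called 39.3% of all genes, 19.1% as higher and 20.2% as lower, so 6 of 35 is a smaller share than that of the whole table. The median log2 fold change was -0.07 over the members and -0.01 over all genes tested.

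Each guide was set against the same 3 controls. With guide 1, 5 members rose and 1 fell, where 36.0% of all genes were called (17.1% higher, 18.9% lower). With guide 2, 4 members rose and 0 fell, where 22.1% were called (11.4% higher, 10.7% lower). Pdk2, Pcx, Idh3g and Glud1 rose with both. Sdhc passed with guide 1 and missed with guide 2, Slc25a10 fell with guide 1 and missed with guide 2, and Slc25a22 missed with each guide taken singly. The direct test of guide 2 against guide 1 in limma called 0 members and 0.0% of all genes, with 3 members and 474 genes at an unadjusted p under 0.05. Those members were Glud1, Pcx and Got2, each with a limma adjusted p of 0.778.

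**Figure D1:**
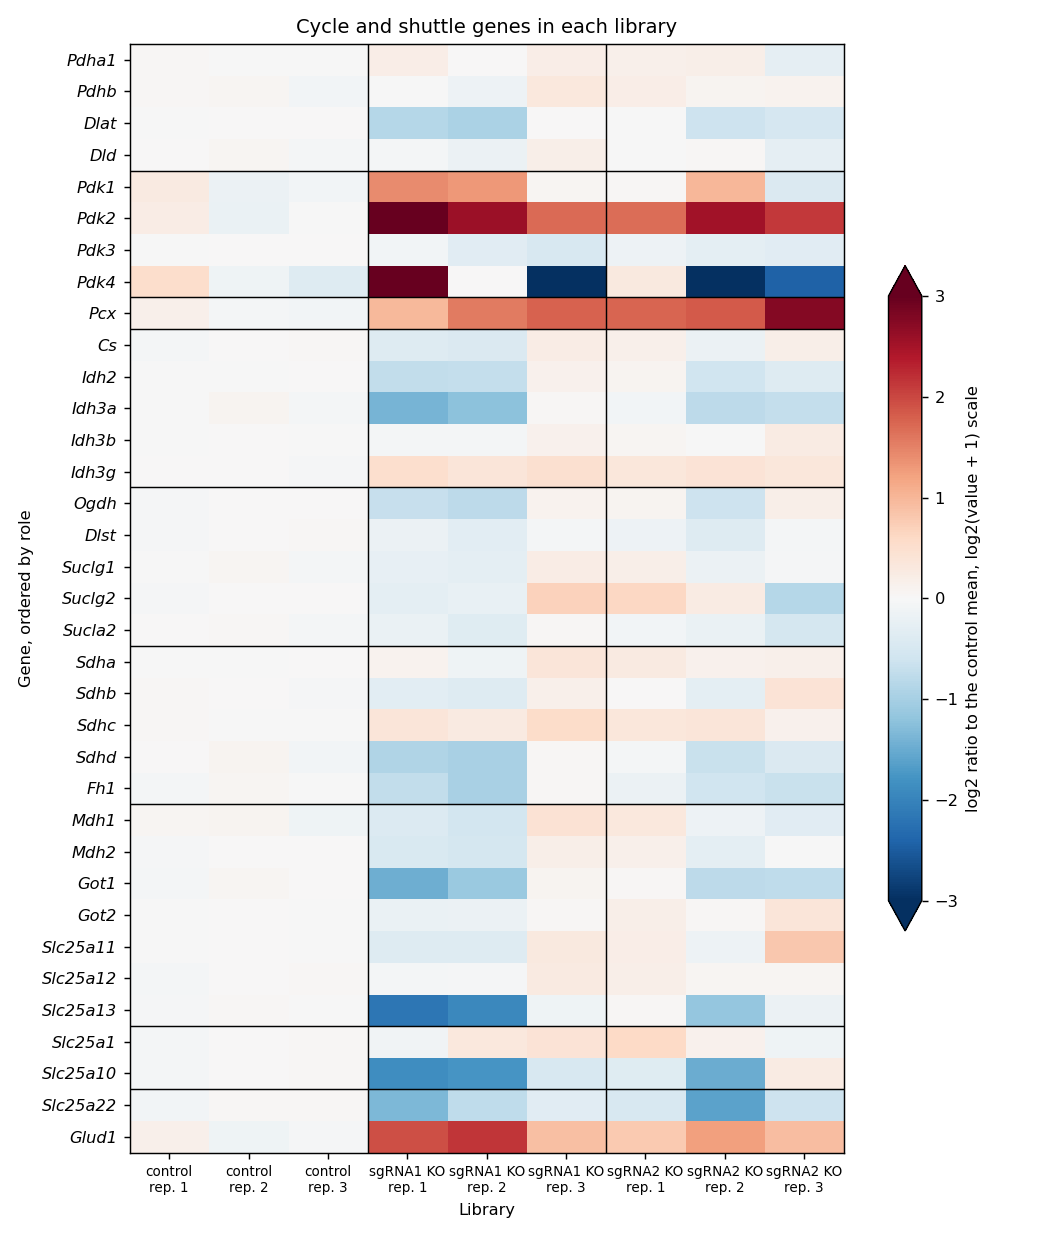
Log2 ratio of each of the 35 genes to its control mean in every library, on the log2(value + 1) scale, with genes in rows grouped by role and libraries in columns. Red is higher and blue lower than the control mean, and the color scale ends at -3 and 3. Pdk2, Pcx and Glud1 are red in all 6 KO libraries, while Idh3a and Got1 are blue in 4 of them and pale in sgRNA1 KO replicate 3 and sgRNA2 KO replicate 1.

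The promoters of 4 of the 5 genes that rose are shown, as these genes were higher in all 6 KO libraries. They are RefSeq sequences of build GRCm38.p6, from 250 bases before to 50 after the start site, read 5′ to 3′ along the gene. Of the 35 members, 33 had an entry (Idh3a and Sdhc had none), and where a gene has 2, as Pdk2 and Pcx do, the first listed is shown. Capitals mark matches on either strand to any of 8 motifs: the E-box CACGTG, the CCAAT box CCAAT, the GC box GGGCGG, the ETS motif CCGGAAG, the estrogen-related receptor motif AAGGTCA, the forkhead motif GTAAACA, the cAMP response element TGACGTCA and the NRF1 motif.
Pdk2, chr11:95041322-95041621, minus strand: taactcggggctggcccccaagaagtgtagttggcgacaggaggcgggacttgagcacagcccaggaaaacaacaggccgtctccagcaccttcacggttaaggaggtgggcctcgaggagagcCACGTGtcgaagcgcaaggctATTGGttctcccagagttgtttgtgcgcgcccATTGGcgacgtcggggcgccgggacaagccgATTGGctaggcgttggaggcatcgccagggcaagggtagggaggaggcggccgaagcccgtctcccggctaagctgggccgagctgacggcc
Pcx, chr19:4510222-4510521, plus strand: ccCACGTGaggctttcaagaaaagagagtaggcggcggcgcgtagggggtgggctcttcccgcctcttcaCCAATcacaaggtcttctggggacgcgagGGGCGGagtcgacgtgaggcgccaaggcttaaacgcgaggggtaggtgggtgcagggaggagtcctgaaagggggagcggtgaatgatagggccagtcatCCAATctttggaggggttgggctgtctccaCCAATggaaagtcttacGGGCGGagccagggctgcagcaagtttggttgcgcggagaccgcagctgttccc
Glud1, chr14:34310477-34310776, plus strand: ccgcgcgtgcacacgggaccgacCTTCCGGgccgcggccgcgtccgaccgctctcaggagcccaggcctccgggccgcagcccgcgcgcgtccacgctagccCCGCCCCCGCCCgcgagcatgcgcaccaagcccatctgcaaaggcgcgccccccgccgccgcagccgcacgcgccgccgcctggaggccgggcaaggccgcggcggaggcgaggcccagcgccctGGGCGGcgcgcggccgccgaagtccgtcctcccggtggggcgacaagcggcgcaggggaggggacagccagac
Idh3g, chrX:73786848-73787147, minus strand: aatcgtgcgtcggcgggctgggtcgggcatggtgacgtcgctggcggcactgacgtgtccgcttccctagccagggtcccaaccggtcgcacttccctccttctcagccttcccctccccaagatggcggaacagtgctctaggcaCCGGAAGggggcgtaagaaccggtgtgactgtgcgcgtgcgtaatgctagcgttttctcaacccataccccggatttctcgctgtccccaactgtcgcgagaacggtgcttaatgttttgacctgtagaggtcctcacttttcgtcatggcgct

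Those of Pdk2 and Pcx each hold 1 E-box and 3 CCAAT boxes, and that of Pcx also holds 2 GC boxes. The Glud1 promoter holds 3 GC boxes and 1 ETS motif, and that of Idh3g holds 1 ETS motif. No motif is found in all 4 sequences, and no matches of different motifs overlap. Of all 32851 promoters of this length, 7.15% hold the E-box, 37.4% the CCAAT box, 35.7% the GC box and 8.86% the ETS motif. Of the 43 promoters of the 33 member genes with an entry, 7, 27, 26 and 6 hold them. Ogdh alone supplies several of these promoters, and by gene 5, 21, 21 and 6 of the 33 hold them. A match is a string of letters, not a measured binding site.

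Pyruvate dehydrogenase joins the E1 subunits Pdha1 and Pdhb, the acetyltransferase Dlat and the dehydrogenase Dld, and none of these 4 genes passed. Pdha1 (ENSMUSG00000031299), which carries the sites that the kinases phosphorylate, had 12250, 11909 and 11847 in the controls, 13681, 12134 and 13872 with guide 1 and 13441, 13496 and 10019 with guide 2 (log2 fold change 0.08, SE 0.12, limma adjusted p = 0.601). Its exons overlap those of Map3k15 on the opposite strand, and whether reads were counted by strand is not given in the sources used here. Dlat (ENSMUSG00000000168) had 5539, 5693 and 5656 in the controls, 3131, 2898 and 5671 with guide 1 and 5541, 3633 and 3979 with guide 2. It lay below every control in 4 KO libraries and not in the pair nearest the controls. The log2 fold change, -0.49 (SE 0.22), did not pass (limma adjusted p = 0.0982), and without the pair it was -0.73 (SE 0.13, limma adjusted p = 0.00273). Pdhb ranged from 3213 to 3509 in the controls and from 3070 to 4193 in the KO libraries, and Dld from 8430 to 9076 in the controls and from 7264 to 9913 in the KO libraries.

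Of the 4 kinases, Pdk2 rose, and the others did not pass with all libraries except Pdk3 under 1 alternative. Pdk2 (ENSMUSG00000038967, chromosome 11, 95026258 to 95041354, minus strand) had 452, 339 and 385 in the controls, 3262, 2318 and 1271 with guide 1 and 1245, 2221 and 1692 with guide 2. The lowest KO library stood at 317.6% of the control mean, so the groups were far apart. The mean went from 392 ± 56.8 (SD, n = 3) to 2002 ± 767 (SD, n = 6), a log2 fold change of 2.27 (SE 0.29, limma adjusted p = 0.00101). Guide 1 gave 2.45 (SE 0.34, limma adjusted p = 0.00384) and guide 2 gave 2.10 (SE 0.34, limma adjusted p = 0.00633).

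Pdk3 (ENSMUSG00000035232) had the most transcript of the 4 per kilobase in the controls. It stood at 1268, 1280 and 1279 in the controls, 1203, 1008 and 915 with guide 1 and 1153, 1040 and 1013 with guide 2. All 6 KO libraries lay below the controls, but the change of -0.28 (SE 0.11) on the log2 scale missed the threshold (limma adjusted p = 0.0756). With variance weights per group it was called lower in KO. Pdk1, a target of hypoxia signaling, had 449, 331 and 353 in the controls, 1000, 925 and 391 with guide 1 and 384, 749 and 279 with guide 2 (log2 fold change 0.57, SE 0.41, limma adjusted p = 0.288). Without the pair nearest the controls, Pdk1 rose with guide 1, by a log2 fold change of 1.36 (SE 0.39, limma adjusted p = 0.0232). It also rose with guide 1 without sgRNA1 KO replicate 3 alone. Pdk4, which fasting induces in many tissues, varied most. It had 77, 48 and 40 in the controls, 934, 53 and 0 with guide 1 and 65, 1 and 9 with guide 2, and sgRNA1 KO replicate 1 alone lay above the controls by a wide margin. The KO mean was therefore higher (177 against 55) while the log2 fold change was negative, -1.42 (SE 1.85), and did not pass (limma adjusted p = 0.562). Its 0 in sgRNA1 KO replicate 3 allows up to 3 counts, by counting error alone.

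Levels of different genes can be compared only per length, here as normalized read count per kilobase of annotated exon. On this scale the 4 kinase genes together summed to 718, 663 and 678 in the controls, 1896, 1260.5 and 809 with guide 1 and 912, 1205 and 969 with guide 2. Every KO library was above every control. The share of Pdk2 in that sum was 16.2% to 19.9% in the controls and 43.2% to 58.3% in the KO libraries. The share of Pdk3 was 68.99% to 75.36% and 24.78% to 49.38%. Pdk2 was the leading isoform in 5 KO libraries and Pdk3 in the controls and sgRNA2 KO replicate 1.

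**Figure D2:**
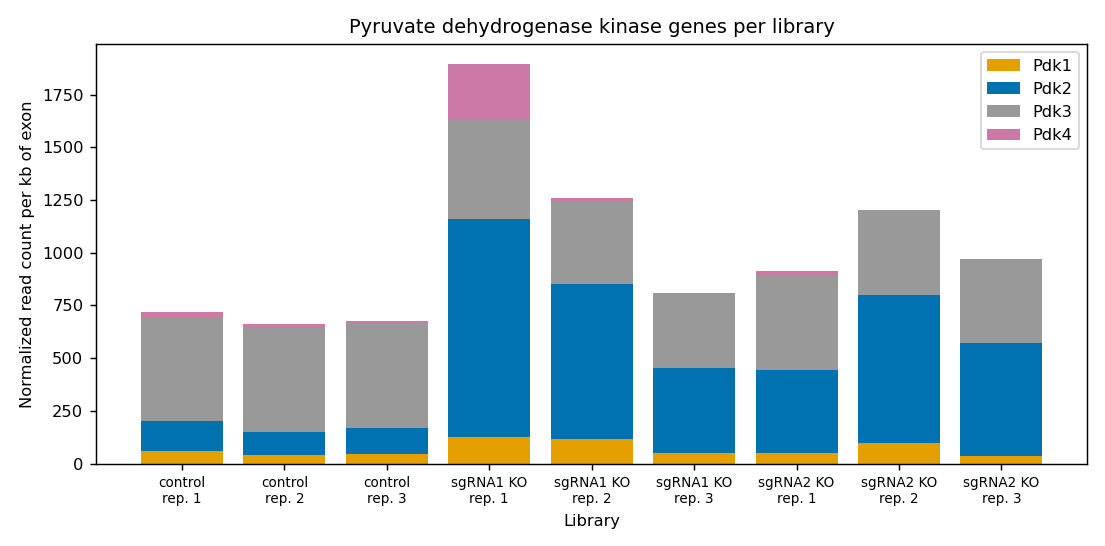
Stacked normalized read count per kilobase of exon of the 4 pyruvate dehydrogenase kinase genes in each library, with the axis starting at 0. The blue part, Pdk2, is 107 to 143 in the controls and 394 to 1031 in the KO libraries, and the gray part, Pdk3, runs from 357 to 499.8 over all 9.

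Pyruvate carboxylase makes oxaloacetate and so refills the cycle. Pcx (ENSMUSG00000024892, chromosome 19, 4510472 to 4621752, plus strand) had 2164, 1875 and 1839 in the controls, 3857, 5712 and 6701 with guide 1 and 6547, 6977 and 13177 with guide 2. All KO libraries lay above the controls, from 196.9% of the control mean in sgRNA1 KO replicate 1 to 672.5% in sgRNA2 KO replicate 3. The mean went from 1959 ± 178 (SD, n = 3) to 7162 ± 3157 (SD, n = 6), a log2 fold change of 1.77 (SE 0.30, limma adjusted p = 0.00284). Guide 1 gave 1.43 (SE 0.29, limma adjusted p = 0.0101) and guide 2 gave 2.11 (SE 0.29, limma adjusted p = 0.00373). The pair nearest the controls over all genes stood at 342.0% and 334.1%, above sgRNA1 KO replicates 1 and 2, and without the pair the change was 1.78 (SE 0.36, limma adjusted p = 0.00570).

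The 8 astrocyte markers summed to 108064 to 117873 in the controls and 164566 to 338673 in the KO libraries, with 4 of 8 risen, 0 fallen and none at 0. With guide 1 their sum ran in the opposite order to Pcx, at 338673, 322504 and 164566 in replicates 1, 2 and 3. With guide 2 it ran in the same order as Pcx, at 168798, 230794 and 329996. Gfap, a defining marker, ranged from 3348 to 4827 in the controls and from 373 to 23509 in the KO libraries, and Aldh1l1 from 8383 to 9644 in the controls and from 2191 to 35433 in the KO libraries. Both lay below the controls in some KO libraries, while the median log2 fold change of the 8 markers was 1.80. Glul, reported below, is on this list too and rose. Oligodendrocyte markers summed to 4317 to 5772 in the controls and 9573 to 26346 in KO (1 of 3 tested rose and 1 fell), and neuronal markers to 42747 to 44048 in the controls and 47435 to 125607 (1 of 4 tested rose). Pericyte and fibroblast markers summed to 2230 to 2385 in the controls and 48 to 384 (2 of 3 tested fell), and endothelial ones to 139 to 186 in the controls and 42 to 204 (1 of 3 tested fell). All these marker counts are for KO against control, where 19.1% of all genes were called higher and 20.2% lower. The part of these markers in the level of Pcx was not tested. In bulk RNA, more cells of a type and more RNA per cell cannot be told apart.

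Citrate synthase and the isocitrate dehydrogenases carry early steps of the cycle. Cs ranged from 30949 to 32719 in the controls and from 23663 to 37273 in the KO libraries, on both sides of the controls. The NAD-dependent isocitrate dehydrogenase is built from the catalytic subunit Idh3a with Idh3b and Idh3g, and their transcripts did not move together. Idh3g (ENSMUSG00000002010, chromosome X, 73778963 to 73786897, minus strand) had 5232, 5202 and 5085 in the controls, 7302, 6708 and 7258 with guide 1 and 6588, 6890 and 6593 with guide 2. Its KO values were even, at 127.4% to 141.2% of the control mean, and the log2 fold change was 0.41 (SE 0.08, limma adjusted p = 0.00498). Guide 1 gave 0.45 (SE 0.10, limma adjusted p = 0.0114), lost without control replicate 2 or 3 (limma adjusted p = 0.0571 and 0.0572). Guide 2 gave 0.37 (SE 0.10, limma adjusted p = 0.0278), lost without control replicate 1, 2 or 3 (0.0855, 0.112 and 0.117), without sgRNA2 KO replicate 2 (0.0754) and with the replicate number as a block (0.0636).

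Idh3a (ENSMUSG00000032279) had 11057, 11818 and 10806 in the controls, 4240, 4764 and 11406 with guide 1 and 10637, 6529 and 6886 with guide 2. The log2 fold change, -0.70 (SE 0.30), did not pass (limma adjusted p = 0.0918), and without the pair of libraries nearest the controls it was -1.03 (SE 0.18, limma adjusted p = 0.00302). Idh3b, whose exons overlap Nop56 on the opposite strand, ranged from 6978 to 7139 in the controls and from 6709 to 8373 in the KO libraries. The ratio of Idh3g to Idh3a, chosen after their values were seen and not tested, was 0.473, 0.440 and 0.471 in the controls, 1.72, 1.41 and 0.636 with guide 1 and 0.619, 1.06 and 0.957 with guide 2. Every KO library had a higher ratio than every control. Idh2, the NADP-dependent mitochondrial enzyme, had 9036, 9093 and 9241 in the controls, 5495, 5526 and 10014 with guide 1 and 9579, 6021 and 6981 with guide 2 (log2 fold change -0.37, SE 0.21, limma adjusted p = 0.177). It lay below all controls in 4 KO libraries and above all controls in the nearest pair, without which the change was -0.61 (SE 0.11, limma adjusted p = 0.00307).

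The oxoglutarate dehydrogenase and succinate-CoA ligase steps had no member past the threshold. Ogdh, the E1 subunit of the former, ranged from 9747 to 10152 in the controls and from 5856 to 11282 in the KO libraries. Dlst, its succinyltransferase, lay below the controls in all 6 KO libraries, ranging from 10613 to 10988 in the controls and from 8244 to 10452 in the KO libraries (log2 fold change -0.19, SE 0.10, limma adjusted p = 0.156). Succinate-CoA ligase pairs Suclg1 with Sucla2 in its ADP-using form or with Suclg2 in its GDP-using form. Sucla2 had 5174, 5236 and 4919 in the controls, 4428, 3969 and 5210 with guide 1 and 4835, 4443 and 3549 with guide 2 (log2 fold change -0.22, SE 0.13, limma adjusted p = 0.175), and without the nearest pair the change was -0.32 (SE 0.11, limma adjusted p = 0.0393). Suclg2 had 2758, 2829 and 2832 in the controls, 2299, 2394 and 4557 with guide 1 and 4293, 3319 and 1546 with guide 2, on both sides of the controls (log2 fold change 0.03, SE 0.31, limma adjusted p = 0.946). Suclg1 ranged from 4754 to 5107 in the controls and from 4008 to 5754 in the KO libraries.

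Succinate dehydrogenase is complex II of the respiratory chain, with Sdha and Sdhb as catalytic subunits and Sdhc and Sdhd as membrane anchors. Sdhc (ENSMUSG00000058076, chromosome 1, 171127165 to 171150603, minus strand) had 10512, 10173 and 10245 in the controls, 13303, 12343 and 15153 with guide 1 and 12963, 13163 and 11302 with guide 2. All 6 KO libraries were above the controls, with a log2 fold change of 0.33 (SE 0.10, limma adjusted p = 0.0270). The call was lost without control replicate 1, 2 or 3 (limma adjusted p = 0.0743, 0.103 and 0.0965), without sgRNA2 KO replicate 2 (0.0532) and with the replicate block (0.0544). Guide 1 gave 0.39 (SE 0.12, limma adjusted p = 0.0302), lost without control replicate 1, 2 or 3 (0.0782, 0.104 and 0.0990), without sgRNA1 KO replicate 1 (0.0802) and with the block (0.0598). Guide 2 gave 0.27 (SE 0.12, limma adjusted p = 0.118).

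The partner anchor Sdhd had 8364, 8731 and 7829 in the controls, 4422, 4216 and 8526 with guide 1 and 7997, 5239 and 6145 with guide 2 (log2 fold change -0.50, SE 0.23, limma adjusted p = 0.107). It lay below the controls in 4 KO libraries and among them in the nearest pair, and without the pair the log2 fold change was -0.75 (SE 0.14, limma adjusted p = 0.00441). The ratio of Sdhc to Sdhd, also chosen after their values were seen and not tested, was 1.26, 1.17 and 1.31 in the controls, 3.01, 2.93 and 1.78 with guide 1 and 1.62, 2.51 and 1.84 with guide 2. Sdha ranged from 19386 to 19501 in the controls and from 17887 to 24798 in the KO libraries, above all controls in 5 of 6 KO libraries, and Sdhb from 7902 to 8270 in the controls and from 6161 to 10731 in the KO libraries. Fumarase, Fh1, had 11278, 12265 and 11546 in the controls, 7060, 5961 and 12042 with guide 1 and 10418, 7770 and 7350 with guide 2 (log2 fold change -0.51, SE 0.20, limma adjusted p = 0.0699). Without the pair its log2 fold change was -0.74 (SE 0.11, limma adjusted p = 0.00159).

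**Figure D3:**
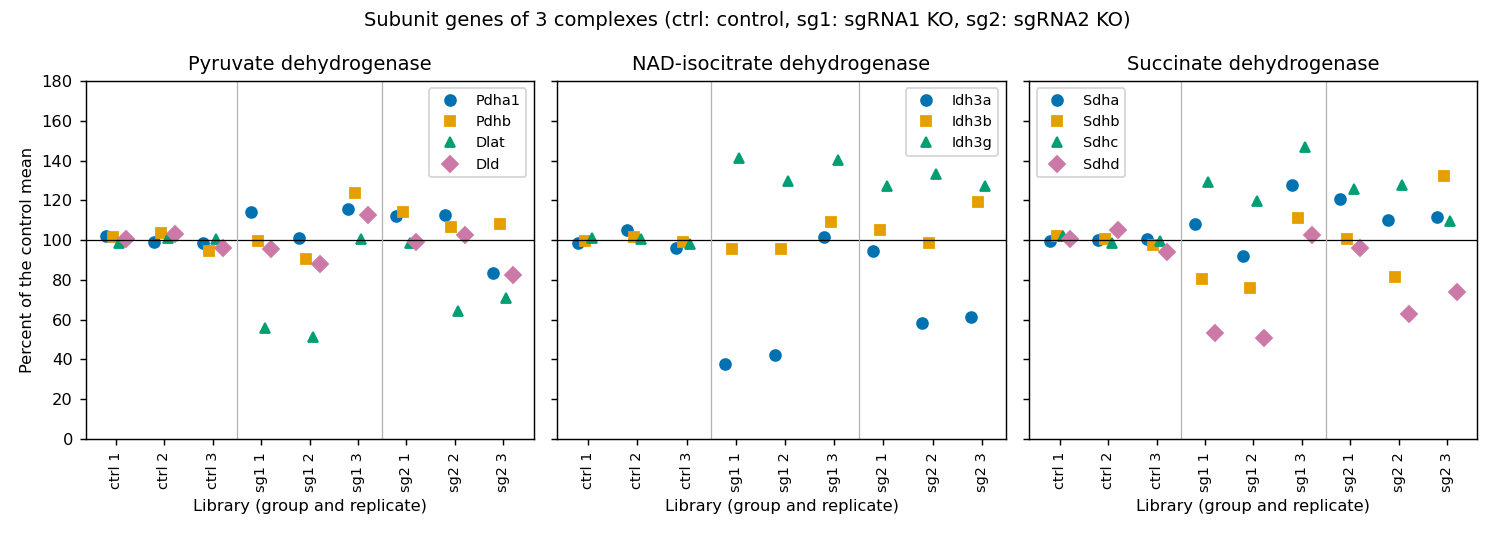
Level of each subunit gene as percent of its control mean in every library, for pyruvate dehydrogenase, NAD-dependent isocitrate dehydrogenase and succinate dehydrogenase, with a line at 100. In sgRNA1 KO replicate 1, Idh3a stands at 37.8% and Idh3g at 141.2%, and Sdhd at 53.2% and Sdhc at 129.0%, while in sgRNA1 KO replicate 3 Idh3a and Sdhd stand at 101.6% and 102.6%.

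The malate-aspartate shuttle uses malate dehydrogenase and aspartate aminotransferase on each side of the inner membrane (Mdh1 and Got1 in the cytosol, Mdh2 and Got2 in the matrix), the oxoglutarate-malate carrier Slc25a11 and the aspartate-glutamate carriers Slc25a12 and Slc25a13. With all libraries, none of these 7 genes passed the test in KO or with either guide. Slc25a13 fell with guide 1 under the replicate block, and with variance weights per group Got1 and Slc25a13 fell in KO and with guide 1. Without the pair nearest the controls, Mdh1, Got1 and Slc25a13 fell in KO, these and Mdh2 with guide 1, and Got1 with guide 2. Mdh1 had 16261, 16376 and 14138 in the controls, 11760, 10546 and 21067 with guide 1 and 19462, 14076 and 12313 with guide 2 (log2 fold change -0.11, SE 0.22, limma adjusted p = 0.700), and without the pair the change was -0.36 (SE 0.12, limma adjusted p = 0.0375). Mdh2 had 19896, 20503 and 20440 in the controls, 14747, 14161 and 22874 with guide 1 and 22595, 16639 and 20159 with guide 2 (log2 fold change -0.16, SE 0.17, limma adjusted p = 0.484), and without the pair guide 1 gave -0.49 (SE 0.11, limma adjusted p = 0.00854). Both were highest in sgRNA1 KO replicate 3, next in sgRNA2 KO replicate 1 and lowest in sgRNA1 KO replicate 2.

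Got1 (ENSMUSG00000025190) had 3526, 3830 and 3679 in the controls, 1330, 1686 and 3887 with guide 1 and 3766, 2125 and 2161 with guide 2 (log2 fold change -0.67, SE 0.32, limma adjusted p = 0.120). The same 4 libraries as for Dlat lay below the controls, and without the pair the change was -1.04 (SE 0.18, limma adjusted p = 0.00281). Got2 had 3138, 3226 and 3177 in the controls, 2770, 2835 and 3279 with guide 1 and 3608, 3244 and 4088 with guide 2, on both sides of the controls (log2 fold change 0.04, SE 0.13, limma adjusted p = 0.815). Exons of Mdh1, Got2 and Slc25a11 overlap genes on the opposite strand (Wdpcp, Gm45760 and Rnf167).

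Slc25a12, or aralar, is the main aspartate-glutamate carrier of brain, and Slc25a13, or citrin, that of liver. Slc25a12 had 2287, 2382 and 2443 in the controls, 2286, 2326 and 2856 with guide 1 and 2688, 2463 and 2474 with guide 2 (log2 fold change 0.08, SE 0.10, limma adjusted p = 0.541). Slc25a13 had 1009, 1054 and 1023 in the controls, 228, 270 and 943 with guide 1 and 1061, 462 and 907 with guide 2, below the controls in 5 of 6 KO libraries (log2 fold change -0.92, SE 0.50, limma adjusted p = 0.165). Without the pair the change was -1.36 (SE 0.44, limma adjusted p = 0.0348) in KO and -2.05 (SE 0.27, limma adjusted p = 0.00120) with guide 1. Per kilobase of exon the control means of the pair were 323 and 271, and the KO means 343 and 169.9. Slc25a11 ranged from 4638 to 4670 in the controls and from 3536 to 8125 in the KO libraries, the highest being sgRNA2 KO replicate 3.

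Ratios of paired genes within a library do not depend on how that library was scaled, and 6 were compared by a two-sided exact permutation test over all 84 ways of dividing the 9 libraries into 6 and 3. None passed after Benjamini-Hochberg adjustment over the 6, and the smallest p this design allows is 0.0119. A ratio that alone reaches this minimum has an adjusted p of 0.0714, so it cannot pass whatever its size. Pcx to Pdha1, the carboxylating against the oxidizing entry of pyruvate, was 0.177, 0.157 and 0.155 in the controls, 0.282, 0.471 and 0.483 with guide 1 and 0.487, 0.517 and 1.32 with guide 2. It was higher in 6 of 6 KO libraries on the log2 scale (difference 1.69, exact p = 0.0119, adjusted p = 0.0714). Idh2 to Idh3a was 0.769 to 0.855 in the controls and 0.878 to 1.30 in the KO libraries, again with no overlap (difference 0.32, exact p = 0.0595, adjusted p = 0.125).

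The ratio of Slc25a12 to Slc25a13 was 2.27, 2.26 and 2.39 in the controls, 10.0, 8.61 and 3.03 with guide 1 and 2.53, 5.33 and 2.73 with guide 2, higher in all 6 KO libraries (exact p = 0.0714, adjusted p = 0.125). Got1 to Got2 was 1.12 to 1.19 in the controls and 0.480 to 1.19 in the KO libraries (difference -0.71, exact p = 0.0833, adjusted p = 0.125). Sucla2 to Suclg2 (difference -0.25, exact p = 0.369, adjusted p = 0.443) and Mdh1 to Mdh2 (difference 0.04, exact p = 0.798, adjusted p = 0.798) overlapped between the groups.

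**Figure D4:**
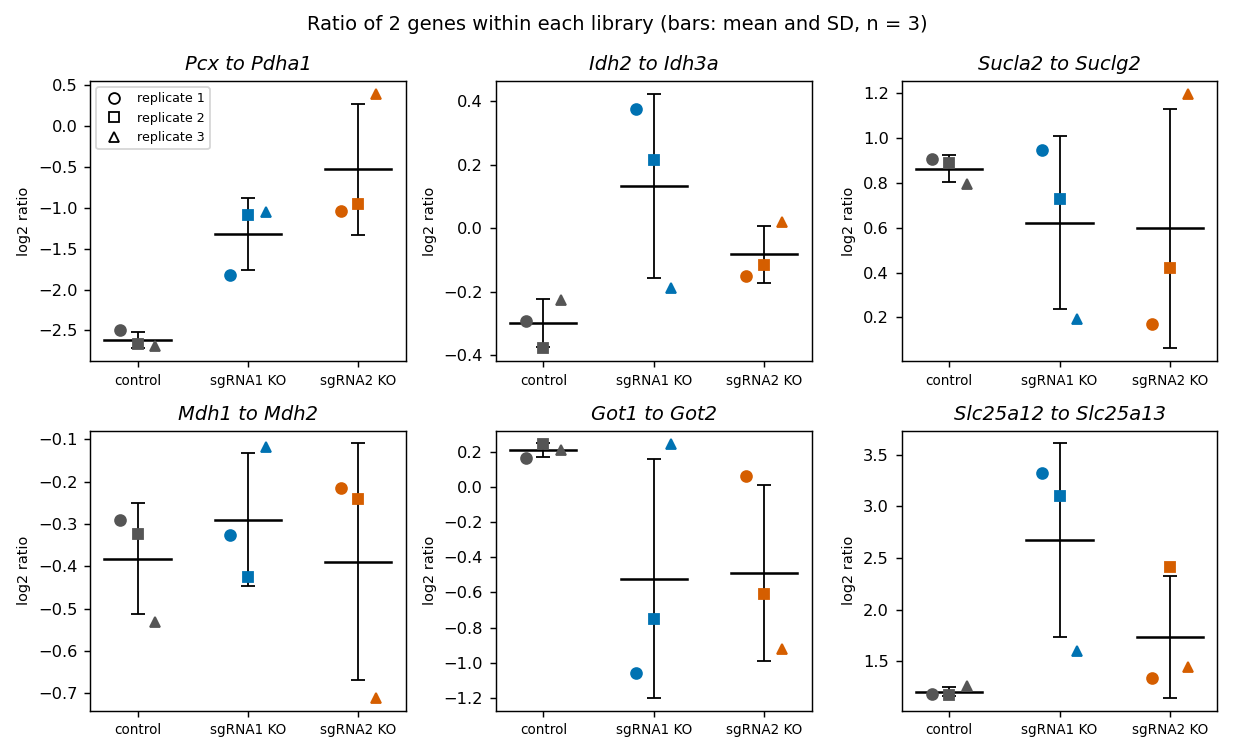
Log2 ratio of the normalized read counts of 2 genes within each library, with shape giving the replicate, long bars the means and error bars the SD (n = 3). For Pcx to Pdha1 the controls lie between -2.69 and -2.50 and the KO libraries between -1.83 and 0.40.

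Other carriers move citrate (Slc25a1) and dicarboxylates (Slc25a10) across the inner membrane. Slc25a10 (ENSMUSG00000025792, chromosome 11, 120491840 to 120499187, plus strand) had 2532, 2677 and 2733 in the controls, 728, 781 and 1881 with guide 1 and 2060, 950 and 3159 with guide 2. All 3 libraries of guide 1 lay below the controls, while sgRNA2 KO replicate 3 lay above them. With guide 1 it fell, by a log2 fold change of -1.37 (SE 0.46, limma adjusted p = 0.0455). That call was lost without control replicate 1, 2 or 3 (limma adjusted p = 0.0970, 0.117 and 0.116), without sgRNA1 KO replicate 1 or 2 (0.152 and 0.139), without sgRNA2 KO replicate 1 (0.0611) and with quantile normalization (0.0552). Over both guides the change was -0.95 (SE 0.45, limma adjusted p = 0.114), which passed without sgRNA2 KO replicate 3 (log2 fold change -1.19, limma adjusted p = 0.0281) and with variance weights per group (0.0147). Its exons overlap those of the antisense gene Gm11788. Slc25a1 ranged from 2962 to 3156 in the controls and from 2796 to 4599 in the KO libraries (log2 fold change 0.20, SE 0.16, limma adjusted p = 0.352).

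Glutamate enters the matrix through the carrier Slc25a22 and is turned into oxoglutarate by glutamate dehydrogenase, and the transcripts of both moved in opposite directions. Glud1 (ENSMUSG00000021794, chromosome 14, 34310727 to 34345265, plus strand) had 10304, 8570 and 9097 in the controls, 35569, 41056 and 17262 with guide 1 and 15923, 21971 and 17778 with guide 2. All 6 KO libraries were above the controls, at 170.8% to 440.3% of the control mean, with sgRNA1 KO replicates 1 and 2 well above the rest. The mean went from 9324 ± 889 (SD, n = 3) to 24926 ± 10706 (SD, n = 6), a log2 fold change of 1.32 (SE 0.30, limma adjusted p = 0.00929). Guide 1 gave 1.66 (SE 0.29, limma adjusted p = 0.00708) and guide 2 gave 0.98 (SE 0.29, limma adjusted p = 0.0428). The guide 2 call was lost without control replicate 1, 2 or 3 (limma adjusted p = 0.0862, 0.141 and 0.126) and without sgRNA2 KO replicate 1, 2 or 3 (0.0515, 0.125 and 0.0797). Without sgRNA1 KO replicate 3, Glud1 differed between the guides, by -1.06 for guide 2 against guide 1 (SE 0.16, limma adjusted p = 0.0408), while without both libraries nearest the controls the difference of -0.95 (SE 0.15, limma adjusted p = 0.0729) did not pass.

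Slc25a22 (ENSMUSG00000019082, chromosome 7, 141429744 to 141437892, minus strand) had 614, 675 and 675 in the controls, 256, 387 and 520 with guide 1 and 470, 214 and 426 with guide 2. All 6 KO libraries lay below the controls, at 32.7% to 79.4% of the control mean. The mean went from 655 ± 35.2 (SD, n = 3) to 379 ± 121 (SD, n = 6), a log2 fold change of -0.86 (SE 0.28, limma adjusted p = 0.0352). The call was lost without control replicate 1, 2 or 3 (limma adjusted p = 0.0815, 0.114 and 0.111) and without sgRNA1 KO replicate 1 (0.0570). Guide 1 gave -0.81 (SE 0.34, limma adjusted p = 0.0864) and guide 2 gave -0.90 (SE 0.34, limma adjusted p = 0.0830). Slc25a18, the other glutamate carrier, rose from 9171 ± 487 (SD, n = 3) to 19167 ± 2049 (SD, n = 6) (log2 fold change 1.06, SE 0.11, limma adjusted p = 0.000477). Per kilobase of exon the control mean was 109 for Slc25a22 and 4799 for Slc25a18.

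**Figure D5:**
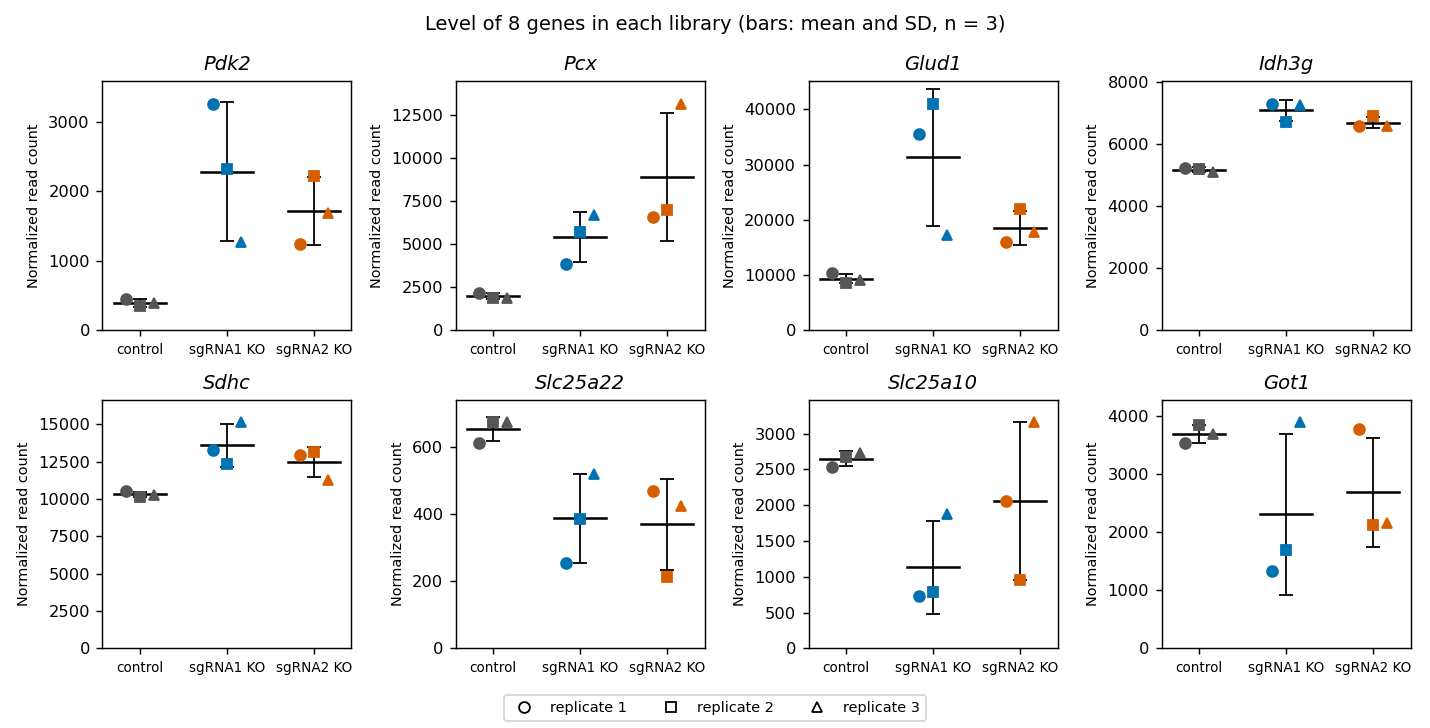
Normalized read count of 8 genes in each library, with shape giving the replicate, long bars the means and error bars the SD (n = 3), on axes that start at 0. In the panels of Pdk2, Pcx, Glud1, Idh3g and Sdhc all KO libraries lie above the controls, in that of Slc25a22 all lie below, and for Got1 sgRNA1 KO replicate 3 (3887) and sgRNA2 KO replicate 1 (3766) lie at the control level.

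KO libraries were spread widely for the members. The median SD of the 35 genes on the log2 scale was 0.0458 among the controls, 0.387 for guide 1 and 0.308 for guide 2, against 0.0859, 0.323 and 0.344 over all genes tested. For 8 members all KO values lay on the same side of all controls, 5 higher and 3 lower (Pdk3, Dlst and Slc25a22). Of all genes tested, 44.8% had such groups, 21.1% higher and 23.8% lower. Of the 35 members, 25, 25 and 6 lay below all controls in the 3 libraries of guide 1, and 7, 21 and 18 in those of guide 2. Over all genes tested the shares below, in the same order, were 46.0, 46.3, 44.6, 44.0, 45.9 and 44.7%. Above all controls lay 9, 7 and 23, and 21, 13 and 15, against 40.8% to 45.5% of all genes tested.

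The members Dlat, Idh2, Sdhd, Mdh1 and Got1 lay below every control in the 4 KO libraries farther from the controls and in neither of the nearest pair. That pair was left out after the data were seen, for its closeness to the controls. Without it, 5 members rose and 10 fell in KO against control. Of all genes, 23.3% were then called higher and 25.0% lower. The 5 that rose and the 1 that fell with all libraries were called again. The other 9 that fell were Dlat, Fh1, Got1, Idh2, Idh3a, Mdh1, Sdhd, Slc25a13 and Sucla2. With guide 1, 13 fell (Cs, Dlat, Fh1, Got1, Idh2, Idh3a, Mdh1, Mdh2, Ogdh, Sdhd, Slc25a10, Slc25a13 and Slc25a22), where 27.0% of all genes were called lower. With guide 2, 7 fell (Dlat, Fh1, Got1, Idh2, Idh3a, Sdhd and Slc25a22), where 20.8% were. Risen without the pair were 6 members with guide 1 (Glud1, Idh3g, Pcx, Pdk1, Pdk2 and Sdhc), where 24.7% of all genes were called higher. With guide 2, 4 rose (Glud1, Idh3g, Pcx and Pdk2), where 18.7% were called higher. The 10 proliferation markers summed to 153296, 161543 and 154262 in the controls, 29313, 23200 and 101046 with guide 1 and 100452, 46854 and 67849 with guide 2. None was at 0. With all libraries, 8 of 10 fell in KO, where 20.2% of all genes were called lower. With guide 1, 10 of these markers fell (18.9% of all genes), and with guide 2, 2 of them fell (10.7%). Their part in the levels of the members was not tested.

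Genes around the cycle were followed in lists, whose counts stand beside 19.1% of all genes called higher and 20.2% lower in KO. The shares were 17.1% and 18.9% with guide 1 and 11.4% and 10.7% with guide 2. Changes of single list genes are for KO against control. Of 12 genes of pyruvate entry, 3 rose and 1 fell, with a median log2 fold change of 0.12. With guide 1, 2 rose and 1 fell, and with guide 2, 2 rose and 0 fell. Mpc2, a subunit of the mitochondrial pyruvate carrier, rose from 1481 to 2224 (log2 fold change 0.58, SE 0.11). Ldhb, the lactate dehydrogenase subunit typical of oxidative tissues, rose from 3092 to 8778 (log2 fold change 1.39, SE 0.32), and Dbt, of branched-chain oxoacid dehydrogenase, rose from 2409 to 3021 (log2 fold change 0.32, SE 0.11). Lipt2, a lipoyl transferase gene, fell from 275 to 156 (log2 fold change -0.88, SE 0.27). The phosphatase genes Pdp1 and Pdp2, whose products act against the kinases, did not pass (log2 fold changes 0.33 and 0.15, limma adjusted p = 0.396 and 0.446).

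Of 13 accessory genes of the cycle, 4 rose and 1 fell, with a median of 0.47. With guide 1, 4 rose and 0 fell, and with guide 2, 3 rose and 0 fell. The fall, of Sdhaf2, was thus called only with both guides pooled. Dhtkd1, the E1 subunit for oxoadipate, rose from 258 to 869 (log2 fold change 1.72, SE 0.23). Ogdhl, the Ogdh-like E1 subunit, rose from 1547 to 3599 (log2 fold change 1.22, SE 0.09). Sdhaf2, an assembly factor of succinate dehydrogenase, fell from 1777 to 1438 (log2 fold change -0.31, SE 0.11).

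Of 16 genes tested for glutamine and malate entry, 6 rose and 1 fell, with a median of 0.21, and Pck1 was not in the table. With guide 1, 6 rose and 1 fell, and with guide 2, 4 rose and 1 fell. Abat, the GABA transaminase, rose from 2751 to 17019.7 (log2 fold change 2.47, SE 0.41). Glul, glutamine synthetase, rose from 10872 to 54894 (log2 fold change 2.26, SE 0.27) and is on the astrocyte list too. Gpt2, the mitochondrial alanine aminotransferase, rose from 11222 to 27264 (log2 fold change 1.24, SE 0.23). Me2, a mitochondrial malic enzyme, fell from 4438 to 1976 (log2 fold change -1.20, SE 0.19).

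Of 9 other mitochondrial carriers tested, 2 rose and 1 fell, with a median of 0.18. With guide 1, 2 rose and 1 fell, and with guide 2, 2 rose and 0 fell. Besides Slc25a18, the coenzyme A carrier gene Slc25a42 rose from 256 to 1470.2 (log2 fold change 2.38, SE 0.41), and the ornithine carrier gene Slc25a15 fell from 1931 to 1173 (log2 fold change -0.76, SE 0.20). Of 9 regulators of mitochondrial biogenesis, 1 rose and 3 fell, with a median of -0.42. With guide 1, 0 rose and 3 fell, and with guide 2 the counts were the same. The rise, of Ppargc1a, was thus called only with both guides pooled. Ppargc1a, a coactivator of mitochondrial genes, rose from 2248 to 2972 (log2 fold change 0.39, SE 0.13), while its relative Pprc1 fell from 4117 to 1438 (log2 fold change -1.64, SE 0.36). Tfam, which packages and transcribes mitochondrial DNA, fell from 3110.3 to 2014 (log2 fold change -0.64, SE 0.15), and Tfb2m, a mitochondrial transcription factor, fell from 362 to 238 (log2 fold change -0.61, SE 0.15). Of the glycerol phosphate shuttle, Gpd2 had 9913, 10089 and 9954 in the controls, 5560, 5328 and 10079 with guide 1 and 9080, 7308 and 6644 with guide 2 (log2 fold change -0.49, SE 0.20, limma adjusted p = 0.0779). Gpd1 did not pass in KO (log2 fold change -1.99, SE 0.72, limma adjusted p = 0.0516) but fell with guide 1, by -2.50 (SE 0.80, limma adjusted p = 0.0391), and Gpd1l rose in KO (log2 fold change 0.48, SE 0.09, limma adjusted p = 0.00496). Without the pair nearest the controls, Gpd1 changed by -2.59 (SE 0.63, limma adjusted p = 0.0116) and Gpd2 by -0.70 (SE 0.13, limma adjusted p = 0.00351).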

How the data were processed

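Poly(A) RNA of mouse brain tumor stem cells was sequenced in 9 libraries, in 3 groups named by the labels. The submitters' processing notes list STAR 2.4.1d, featureCounts, DESeq2 and build mm10, while the annotation release is not given in the sources used here. The deposited values are scores: by the look of the values, the authors divided each library's read counts by a single factor and rounded. Raw counts were not used here.

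Values were taken as log2(value + 1), which understates fold changes of low genes. The 15827 genes with an average of 10 or more were tested with limma 3.58.1 (R 4.3.3), two-sided with a mean-variance trend. KO against control was fitted with 2 groups and the guides with 3. The scripts were tested on simulated data that gave a gene the same spread in all groups. The unequal spread of control and KO libraries was thus not covered. Positions and exon lengths came from GENCODE M21, which matched 21817 of the genes (99.6%). Exons of 6 members overlap a gene on the opposite strand. Alternatives were pseudocounts of 0.5 and 5, no filter or an average of 50, quantile and median-of-ratios scaling, variance weights, a replicate block, fits to the groups compared alone, and leaving out each library. Members and lists were chosen with earlier results of these data known. Members that passed in any comparison, and those of the 6 ratios, are given in full. Of each list up to 3 genes with the largest rise and 3 with the largest fall are named, and Pdp1 and Pdp2 were added after their values were seen. Some genes of these lists are counted but not reported here by name.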

Additional observations from a re-analysis of the deposited data

How the results depend on the processing

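Pdk2, Pcx, Idh3g and Glud1 kept their call in KO against control under all 18 alternatives, with limma adjusted p of at most 0.0477. The 1 member fallen in KO became 11 with variance weights per group (where 29.4% of all genes were called lower) and 10 (25.0%) without both KO libraries nearest the controls, and 0 to 6 when single libraries were left out, while the 5 risen ranged from 4 to 5. With guide 1, the 1 fallen became 0 with quantile normalization (16.2%), 8 with variance weights (24.2%), 2 with the replicate block (17.7%), 2 with only the 6 libraries compared (22.8%), 13 without both libraries (27.0%) and 0 to 12 without single ones, and the 5 risen ranged from 3 to 6. With guide 2, the 0 fallen became 1 with variance weights (15.8%), 7 without both libraries (20.8%) and 0 to 2 without single ones, and the 4 risen ranged from 2 to 4. Without single libraries, 8.13% to 25.2% of all genes were called lower in KO and 9.29% to 23.0% higher. With guide 1 these shares were 3.6% to 26.3% lower and 4.3% to 23.7% higher. With guide 2 they were 1.89% to 18.1% lower and 1.97% to 16.6% higher. The counts over the whole table thus moved widely too. Between the guides, members fallen ranged from 0 to 1, where 0.0% to 0.568% of all genes were called lower. Over the whole table limma called 6227 genes in KO, 5699 with guide 1, 3505 with guide 2 and 0 between guides. Without single libraries these ranged from 2759 to 7609, 1252 to 7915, 612 to 5496 and 0 to 173. Without both libraries the guide 2 count was 6268 and that between guides 30. The KO count was 3899, 2759 and 2987 without control replicates 1, 2 and 3.

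The difference in the ratio of Mdh1 to Mdh2 ran from -0.032 to 0.117 without single libraries and was -0.044 without both, on either side of 0. Deviations from group means showed no pairing of libraries by replicate number, though such overlapping ranges cannot exclude one. They correlated between -0.35 and 0.33 for the 9 pairs with the same number and between -0.52 and 0.52 for the 18 others. With the replicate block, 4 members rose in KO (17.9% of all genes called higher) and 3 with guide 2 (8.56%). The causes of these shifts were not tested.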
